A study of Tachycineta bicolor with 30 samples.

Results

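The cadherins and protocadherins of the tree swallow brain are described here in 27 RNA-seq libraries. Members are all transcripts of the deposited table whose best protein match has "cadherin" in its title, which gave 83 of 19478 transcripts under 56 protein names. All 83 passed the filter on low values. Of them, 45 had a mean of at least 50 normalized counts over the libraries, 16 had a mean of 10 to 50 and 22 had a mean under 10. A name held by several transcripts (19 names) is represented by the one with the highest mean count, and hits that end in "-like" were kept apart, since each may be a separate gene or a further fragment of the gene it resembles. Normalized counts are read counts scaled for library depth alone, with no division by the length of the transcript, so levels are compared between samples and never between genes.

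The birds were free-living adult females of Tachycineta bicolor. Females in incubation (INC, n = 5) were sitting on complete clutches, and females in territory establishment (TE, n = 4 libraries per region) were caught early in the season while contesting nest boxes. The samples are a macrodissected ventromedial telencephalon (VmT, cut around the position of nucleus taeniae), hypothalamus (HYPO, with the preoptic area) and hindbrain (HB). Stage goes with season, and the regions are blocks of tissue with many cell types, in which fewer cells of a type and less RNA per cell cannot be told apart. The 6 groups thus hold 5 INC and 4 TE libraries per region, but the labels of 1 VmT library of TE carry the numbers of 2 different TE females. One of these is the bird that the authors removed for low RNA quality in its HB and HYPO, while they report high quality for all other samples. This library may come from that bird, and it is called the unsettled VmT library.

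Cadherins are calcium-dependent adhesion proteins that join neighbouring cells, mostly like to like. Classical cadherins, of type I and type II, grip the actin skeleton through catenins and hold synapses and cell layers together, while the cytoplasmic tails of protocadherins bind other partners. Clustered protocadherins are chosen in combinations by single neurons and mark their branches as self, delta protocadherins label pathways and nuclei, and the giant FAT, Dachsous and CELSR proteins act in planar polarity and in the steering of axons.

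Reads recovered from the deposited values summed to between 6001315 and 13710385 per library (median 8308433) over the transcripts of the table. Of these, 11777 to 25019 fell on the 83 members. The paper reports more mapped read pairs per sample than these totals. NPVF, a peptide gene of the hypothalamus, averaged 46.7 normalized counts in the VmT, 653 in the HYPO and 10.8 in the HB, and SLC6A5, the glycine transporter of hindbrain neurons, 0.535, 15.9 and 1450, in the same order of regions. NKX2-1, a factor of the hypothalamus, was about as high in the VmT (42.9) as in the HYPO (36.0). By the test described below, 4 of 9 telencephalon markers were higher and 1 lower in the VmT than in the HYPO. Of 8 hypothalamus markers, 0 were higher and 4 lower in the same comparison. Of 13 hindbrain markers, 0 were higher and 12 lower in the VmT than in the HB. The mean log2 level of 20 thalamus and midbrain markers was 6.96 to 7.25 in VmT libraries of INC and 5.06 to 6.99 in those of TE, lowest in females 85689 (5.06) and 85674 (5.75). The HB library of INC female 85889 had a mean log2 level of 10.9 over the pituitary markers, and the HB libraries of TE female 85674 and INC female 85757 had 6.22 and 5.18, against 2.004 to 4.43 in the other 24. Counts were also run without the HB libraries of 85889 and 85674, the 2 VmT libraries just named and all libraries of 85757.

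More members differed between regions than between stages, and the same held for all transcripts. A region comparison holds 9 libraries on each side and a stage comparison 5 and 4, so their counts also differ in power. A transcript is called differentially expressed at an adjusted p of at most 0.05 in limma, a linear model of log2(normalized count + 1) with all 27 libraries in 1 fit, adjusted over 19473 transcripts, and fold changes are on that scale. Of the 83 members, 37 differed between the VmT and the HB (16 higher and 21 lower in the VmT), a share of 44.6%. Of all transcripts 43.4% were called (17.6% higher and 25.7% lower), so the members were near the background. The split was 18 higher and 16 lower with quantile normalization, and 17 and 17 without the 2 HB libraries highest in pituitary markers. Between the VmT and the HYPO 24 differed (7 higher and 17 lower in the VmT), a share of 28.9% beside 25.9% of all transcripts (11.7% higher and 14.1% lower). Between the HYPO and the HB 17 differed, 13 of them higher and 4 lower in the HYPO, a share of 20.5% beside 12.4% of all transcripts (5.33% higher and 7.05% lower). With quantile normalization the split of this last count was 14 higher and 2 lower. The median log2 fold change over the members was -0.17 for VmT over HB, -0.25 for VmT over HYPO and 0.03 for HYPO over HB, against -0.08, -0.05 and -0.04 over all transcripts. The 3 comparisons share their libraries, so they are not independent of each other. In all, 47 members (56.6%, against 47.9% of all transcripts) were called in at least 1 region comparison and 6 (7.23%, against 5.17%) in all 3.

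**Figure D1:**
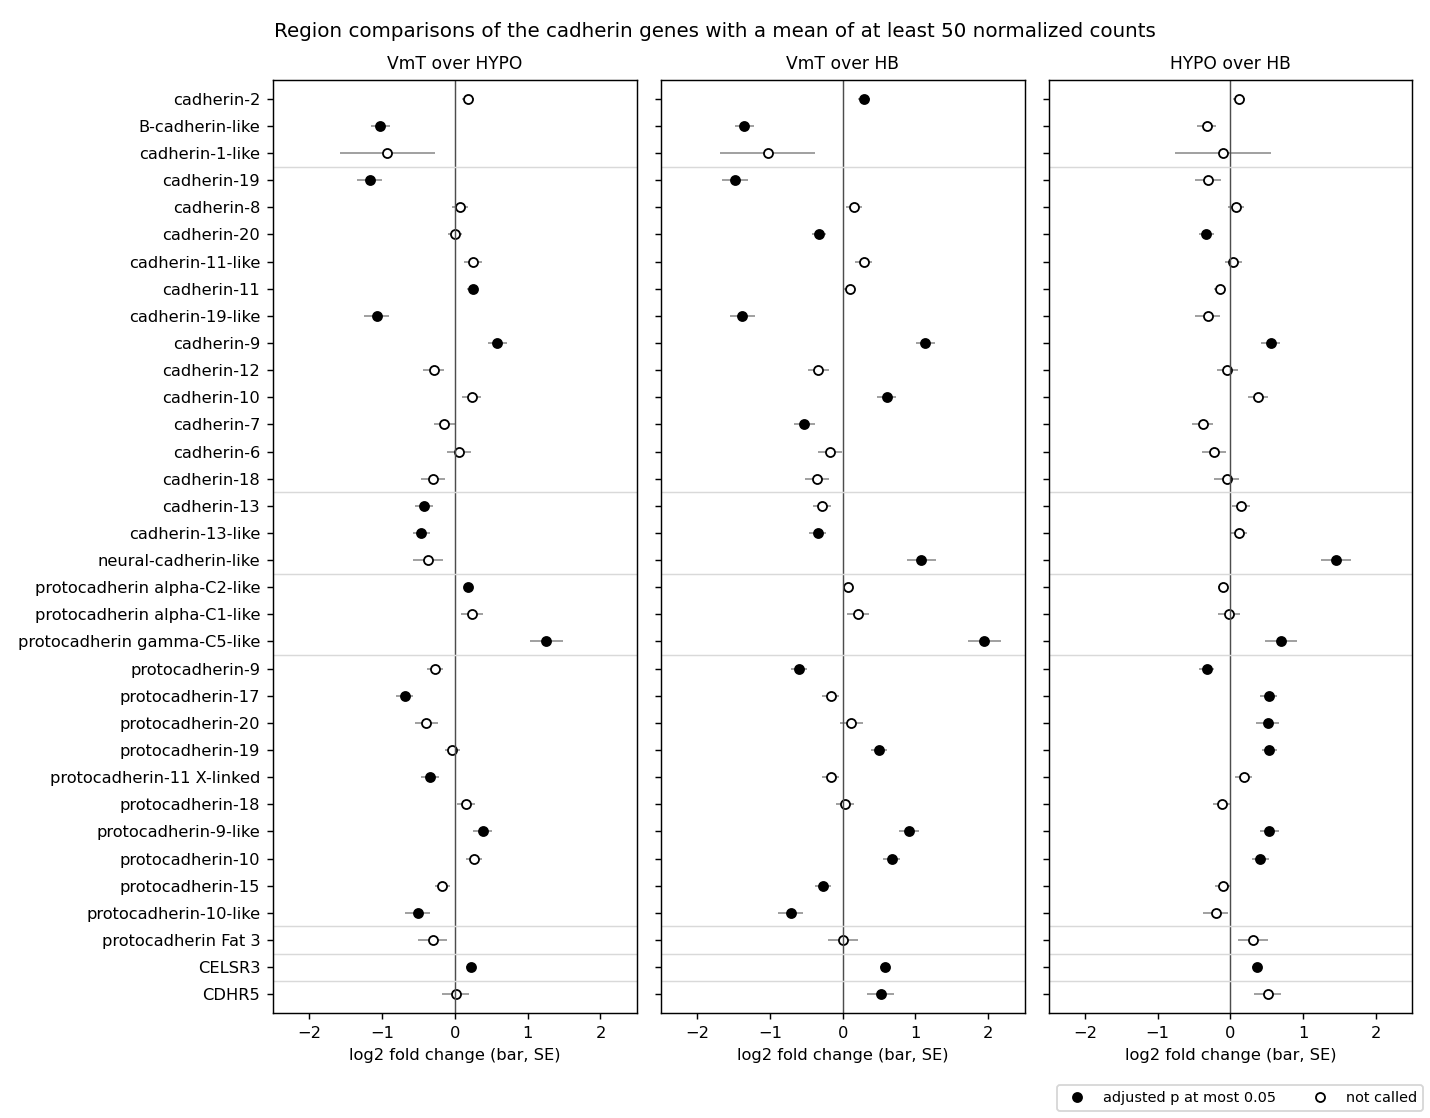
The log2 fold changes (x axis, bars are standard errors) of the 34 cadherin genes with a mean of at least 50 normalized counts for VmT over HYPO, VmT over HB and HYPO over HB, with families from type I cadherins at the top to cadherin-related genes at the bottom divided by lines. Filled circles mark an adjusted p of at most 0.05, and protocadherin gamma-C5-like stands farthest to the right (1.95 for VmT over HB) while cadherin-19 stands farthest to the left (-1.48).

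Among the 6 type I cadherins, B-cadherin-like, cadherin-1 and cadherin-4 were lower in the VmT in at least 1 comparison, and cadherin-2 was higher there than in the HB. Cadherin-2, or N-cadherin, the main classical cadherin of neural tissue, averaged 1018 ± 166 normalized counts in the VmT, 890 ± 80.0 in the HYPO and 826 ± 75.4 in the HB (SD, n = 9 each). Only VmT over HB passed (log2 fold change 0.29, standard error 0.08, adjusted p = 0.00473), and the ranges overlapped, from 828 to 1353 in the VmT and 719 to 989 in the HB. B-cadherin-like, which matches a classical cadherin first described in chick, ran from 18.6 to 69.2 (median 41.1) in the VmT, from 51.9 to 90.9 (median 83.1) in the HYPO and from 85.1 to 129 (median 95.6) in the HB. Every HB library was above every VmT library, and the HYPO lay between with some overlap with both. The log2 fold change was -1.35 for VmT over HB (standard error 0.13, adjusted p = 1.92e-09) and -1.02 for VmT over HYPO (standard error 0.13, adjusted p = 8.57e-07). HYPO over HB did not pass (-0.33, adjusted p = 0.103).

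Among the other type I members, cadherin-15 averaged 1.54, 2.15 and 2.45 normalized counts in the VmT, HYPO and HB, and it was not called. Cadherin-4, the retinal cadherin, averaged 35.1 ± 17.1 in the VmT, 57.5 ± 9.89 in the HYPO and 38.7 ± 10.98 in the HB, and was lower in the VmT than in the HYPO (log2 fold change -0.88, adjusted p = 0.00287). Cadherin-1, the E-cadherin of epithelia, had low counts, 4.34 in the VmT, 5.05 in the HYPO and 11.4 in the HB, and was lower in the VmT than in the HB (-1.22). Cadherin-1-like, with 37.9, 61.7 and 68.5 normalized counts in the VmT, HYPO and HB, passed in no comparison, and it spread widely between females. In female 85899 it had 1.11 normalized counts in the VmT, 5.19 in the HYPO and 2.92 in the HB, the lowest of the 8 females with a settled library in every region, while the other 7 had 13.1 to 103, 20.6 to 98.0 and 39.2 to 115. These libraries came from 1 bird, and this transcript was singled out after its values were seen.

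Type II cadherins (21 transcripts, 12 names) held patterns that ran in opposite directions. Cadherin-9, which in mouse joins particular hippocampal synapses, ran from 178 to 351 normalized counts (median 241) in the VmT, from 125 to 201 (median 154) in the HYPO and from 73.5 to 165 (median 111) in the HB. All VmT libraries were above all HB libraries, and each step down was called. The log2 fold change was 1.13 for VmT over HB (standard error 0.13, adjusted p = 3.92e-08), 0.58 for VmT over HYPO (standard error 0.13, adjusted p = 0.00114) and 0.55 for HYPO over HB (standard error 0.13, adjusted p = 0.00428). The second cadherin-9 transcript gave 0.87, 0.66 and 0.21 for the same comparisons, the last of which did not pass. Cadherin-10 was likewise higher in the VmT than in the HB (135 ± 35.3 and 88.4 ± 15.2, log2 fold change 0.60, adjusted p = 5.58e-04), and its second transcript gave 0.51.

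Cadherin-19, known in mammals from the glial precursors of nerves, ran the other way. It had 228 to 620 normalized counts (median 403) in the VmT, 456 to 1192 (median 907) in the HYPO and 922 to 1263 (median 1065) in the HB. No VmT library reached the lowest HB library. The log2 fold change was -1.48 for VmT over HB (standard error 0.17, adjusted p = 7.13e-08) and -1.17 for VmT over HYPO (standard error 0.17, adjusted p = 8.37e-06), while HYPO over HB did not pass (-0.31, adjusted p = 0.285). The 2 cadherin-19-like transcripts showed -1.38 and -1.53 for VmT over HB and -1.07 and -1.27 for VmT over HYPO. Reads of cadherin-19 and of cadherin-19-like could be shared between these sequences, so the 3 transcripts are not separate evidence.

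The remaining type II members differed less. Cadherin-7 and cadherin-20, the first of them known from chick neural crest, were lower in the VmT than in the HB, with 76.0 ± 14.8 and 109 ± 20.8 for cadherin-7 (log2 fold change -0.53, adjusted p = 0.00322) and 512 ± 90.6 and 640 ± 67.3 for cadherin-20 (-0.33, adjusted p = 0.0088). Cadherin-20 was also lower in the HYPO, at 513 ± 84.5 (-0.33 for HYPO over HB, adjusted p = 0.026), a call that was lost in 3 of 27 fits without a single library. Cadherin-11, a cadherin of mesenchyme and neurons, had 525.5 ± 60.6 in the VmT and 454.5 ± 78.2 in the HYPO (log2 fold change 0.25, adjusted p = 0.0165). Without the 2 VmT libraries lowest in thalamus and midbrain markers this adjusted p was 0.137. Cadherin-6, cadherin-8, cadherin-11-like and the main transcripts of cadherin-12 and cadherin-18 passed in no region comparison, with fold changes between -0.36 and 0.29. The second cadherin-18 transcript was called for VmT over HYPO (-0.57) and VmT over HB (-0.55). That of cadherin-12 was called for VmT over HYPO (-0.51).

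Markers of glia and of neurons differed between the regions too. Of 7 oligodendrocyte markers measured, 7 were lower in the VmT than in the HB and 6 lower than in the HYPO. Their mean log2 level was 8.27 to 9.20 in the VmT libraries, 9.32 to 10.2 in the HYPO and 9.93 to 10.7 in the HB. UGT8, an enzyme of myelin lipids, averaged 2738, 5905 and 9018 normalized counts in the VmT, HYPO and HB, and MBP 3246, 5952 and 8586. No oligodendrocyte marker was at 0. Of 8 astrocyte markers, 6 were lower in the VmT than in the HB and 6 lower than in the HYPO. Of 9 pan-neuronal markers, 2 were higher and 6 lower in the VmT than in the HB, and 2 higher and 4 lower than in the HYPO. Of 9 microglia markers, 0 were higher, 5 were lower in the VmT than in the HB and 1 lower than in the HYPO. Of all transcripts, 25.7% were lower in the VmT than in the HB and 14.1% lower than in the HYPO. Cadherin-19, B-cadherin-like and the main protocadherin-9 transcript had means in the same order as UGT8 and MBP. VmT over HYPO was not called for this protocadherin-9 transcript, nor HYPO over HB for cadherin-19 and B-cadherin-like. Cadherin-4, cadherin-13 and protocadherin-17, called lower in the VmT than in the HYPO, had their highest mean in the HYPO. The part of glial cells or neurons in these differences was not tested.

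**Figure D2:**
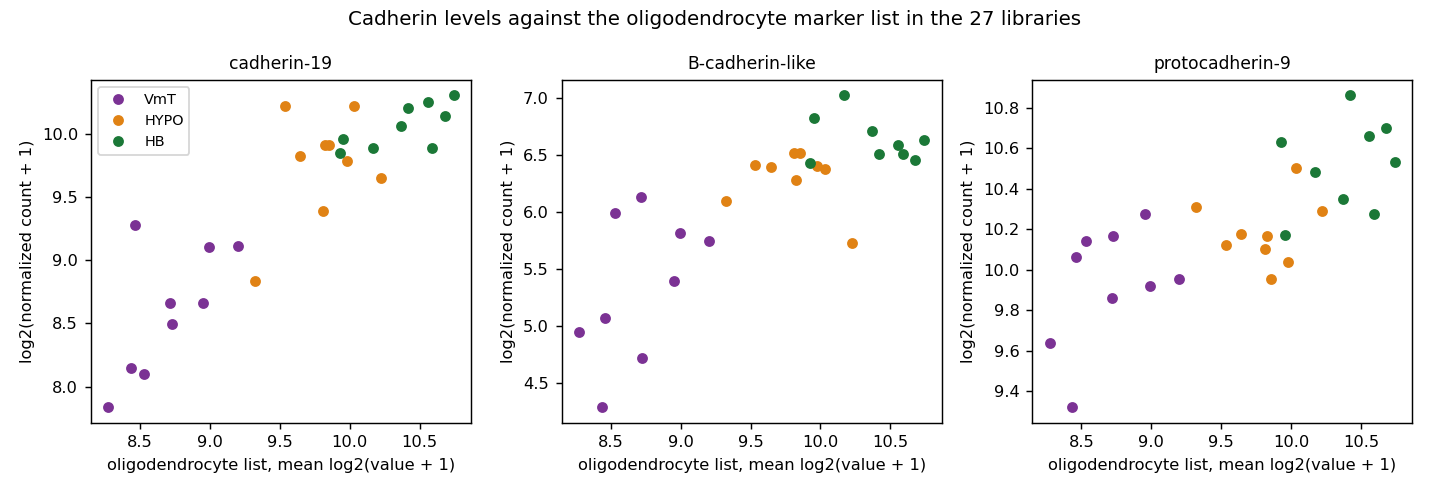
Each point is 1 of the 27 libraries, with the mean log2(normalized count + 1) of 7 oligodendrocyte markers on the x axis and the log2 level of cadherin-19, B-cadherin-like or the main protocadherin-9 transcript on the y axis. The VmT libraries (8.27 to 9.20 on the x axis) lie apart from the HYPO and HB libraries (9.32 to 10.7).

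Cadherin-13, or T-cadherin, which is tethered to the membrane by a lipid and has no cytoplasmic tail, was lower in the VmT than in the HYPO. Its main transcript averaged 117 ± 23.7 normalized counts in the VmT, 157 ± 33.2 in the HYPO and 139.5 ± 19.2 in the HB, and VmT over HYPO gave -0.42 ± 0.13 (standard error) at an adjusted p of 0.0132. Cadherin-13-like gave -0.46 (adjusted p = 0.00327), with 99.6 ± 16.2 and 137 ± 19.8. A pair of further cadherin-13 transcripts passed in this comparison (-0.72 and -0.65). The largest HYPO over HB fold change among the members with a mean of at least 50 was that of neural-cadherin-like, whose orthologue was not settled here. It had 52.7 to 147 normalized counts (median 94.5) in the VmT, 66.0 to 141 (median 108) in the HYPO and 15.2 to 64.2 (median 41.3) in the HB. No HB library reached the lowest HYPO library, and the top VmT value, in the unsettled library, was far above the other TE values of 52.7 to 62.2. The log2 fold change was 1.45 for HYPO over HB (standard error 0.21, adjusted p = 9.11e-06) and 1.08 for VmT over HB (standard error 0.21, adjusted p = 9.88e-05).

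The clustered protocadherins (7 transcripts, 6 names) held the largest region fold change among the members with a mean of at least 50, that of protocadherin gamma-C5-like. Its mean over all libraries was 50.1, so it entered this ranking only through its high VmT values. Protocadherin gamma-C5-like, a C-type isoform of the gamma cluster, ran from 38.9 to 157 normalized counts (median 90.05) in the VmT, from 25.4 to 62.8 (median 32.4) in the HYPO and from 15.6 to 28.1 (median 21.3) in the HB. All VmT libraries were above all HB libraries, while the lowest VmT value, again of the unsettled library, fell within the HYPO range. The log2 fold change was 1.95 for VmT over HB (standard error 0.22, adjusted p = 4.5e-08), 1.26 for VmT over HYPO (standard error 0.22, adjusted p = 9.72e-05) and 0.69 for HYPO over HB (standard error 0.22, adjusted p = 0.04). The last call was lost in 10 of 27 fits without a single library. Protocadherin gamma-B4-like, at 7.23, 13.9 and 15.5 in the VmT, HYPO and HB, was lower in the VmT than in the HB (-1.08). Protocadherin alpha-C2-like had 2995 ± 209 in the VmT, 2628 ± 241 in the HYPO and 2833 ± 250 in the HB, and only VmT over HYPO passed (0.18, adjusted p = 0.0282), a call lost in 5 of 27 fits without a single library. Isoforms of the alpha cluster, and likewise of the gamma cluster, share their last exons, so reads may be divided between them by the authors' mapping.

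Delta protocadherins (21 transcripts with the other non-clustered forms, 12 names) split by gene. Protocadherin-17, which in mouse acts at synapses of the basal ganglia circuit, peaked in the HYPO, with 819.6 to 1423 normalized counts (median 1034), against 484 to 1032 (median 646) in the VmT and 584 to 991 (median 760.5) in the HB. It was lower in the VmT than in the HYPO (log2 fold change -0.69, standard error 0.12, adjusted p = 7.18e-05) and higher in the HYPO than in the HB (0.52, standard error 0.12, adjusted p = 0.00347), and the ranges overlapped. Protocadherin-11 X-linked was also lower in the VmT than in the HYPO (-0.34), and protocadherin-20 higher in the HYPO than in the HB (0.51).

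Protocadherin-19, a gene of a human epilepsy, and protocadherin-10 were low in the hindbrain. Protocadherin-19 had 183 to 372 normalized counts (median 310.0) in the VmT, 261 to 377 (median 298) in the HYPO and 174 to 246 (median 210) in the HB, with every HYPO library above every HB library. Its log2 fold change was 0.53 for HYPO over HB (standard error 0.11, adjusted p = 8.8e-04) and 0.50 for VmT over HB (standard error 0.11, adjusted p = 3.75e-04). Protocadherin-10 averaged 211 ± 38.8, 174.5 ± 32.7 and 131 ± 15.6 in the VmT, HYPO and HB, with 0.67 for VmT over HB (standard error 0.11, adjusted p = 2.56e-05) and 0.41 for HYPO over HB (adjusted p = 0.0173). All VmT libraries were above all HB libraries for it. Protocadherin-10-like went the opposite way, with 51.1 ± 17.9, 69.8 ± 18.1 and 79.4 ± 13.2 (-0.72 for VmT over HB, adjusted p = 0.00125, and -0.51 for VmT over HYPO, adjusted p = 0.0278, the second lost in 4 of 27 fits without a single library). Without the 2 VmT libraries lowest in thalamus and midbrain markers protocadherin-10-like gave -0.29 for VmT over HYPO (adjusted p = 0.283). Protocadherin-15, a hair cell protein, was lower in the VmT than in the HB (-0.28), and protocadherin-18 and protocadherin-12 passed in none.

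Protocadherin-9 was highest in the hindbrain in 3 of its 4 transcripts. The one with the highest mean count averaged 989.6 ± 186 normalized counts in the VmT, 1170 ± 137 in the HYPO and 1481 ± 226 in the HB (log2 fold change -0.60 for VmT over HB, standard error 0.10, adjusted p = 2.98e-05), and its call for HYPO over HB (-0.33, adjusted p = 0.0371) was lost in 11 of 27 fits without a single library. A second, OXPHG543163, ran from 491 to 755 (median 536) in the VmT, 705 to 969 (median 819) in the HYPO and 904 to 1132 (median 1046) in the HB, so that the VmT and HB ranges were far apart. It gave -0.87 for VmT over HB (standard error 0.08, adjusted p = 1.24e-09), -0.54 for VmT over HYPO (adjusted p = 1.25e-05) and -0.33 for HYPO over HB (adjusted p = 0.00715). Another, OXPHG544426, gave -1.39, -0.72 and -0.67. The remaining one, at a mean of 15.4 in the VmT and 14.5 in the HB, passed in none. Protocadherin-9-like had the reverse order, with 269 ± 72.5 in the VmT, 199 ± 23.9 in the HYPO and 139 ± 26.7 in the HB. Its log2 fold change was 0.92 for VmT over HB (adjusted p = 3.19e-06), 0.54 for HYPO over HB (adjusted p = 0.0081) and 0.38 for VmT over HYPO (adjusted p = 0.0389), and the last call was lost in 9 of 27 fits without a single library. It was 0.20 (adjusted p = 0.331) without the 2 VmT libraries lowest in thalamus and midbrain markers.

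**Figure D3:**
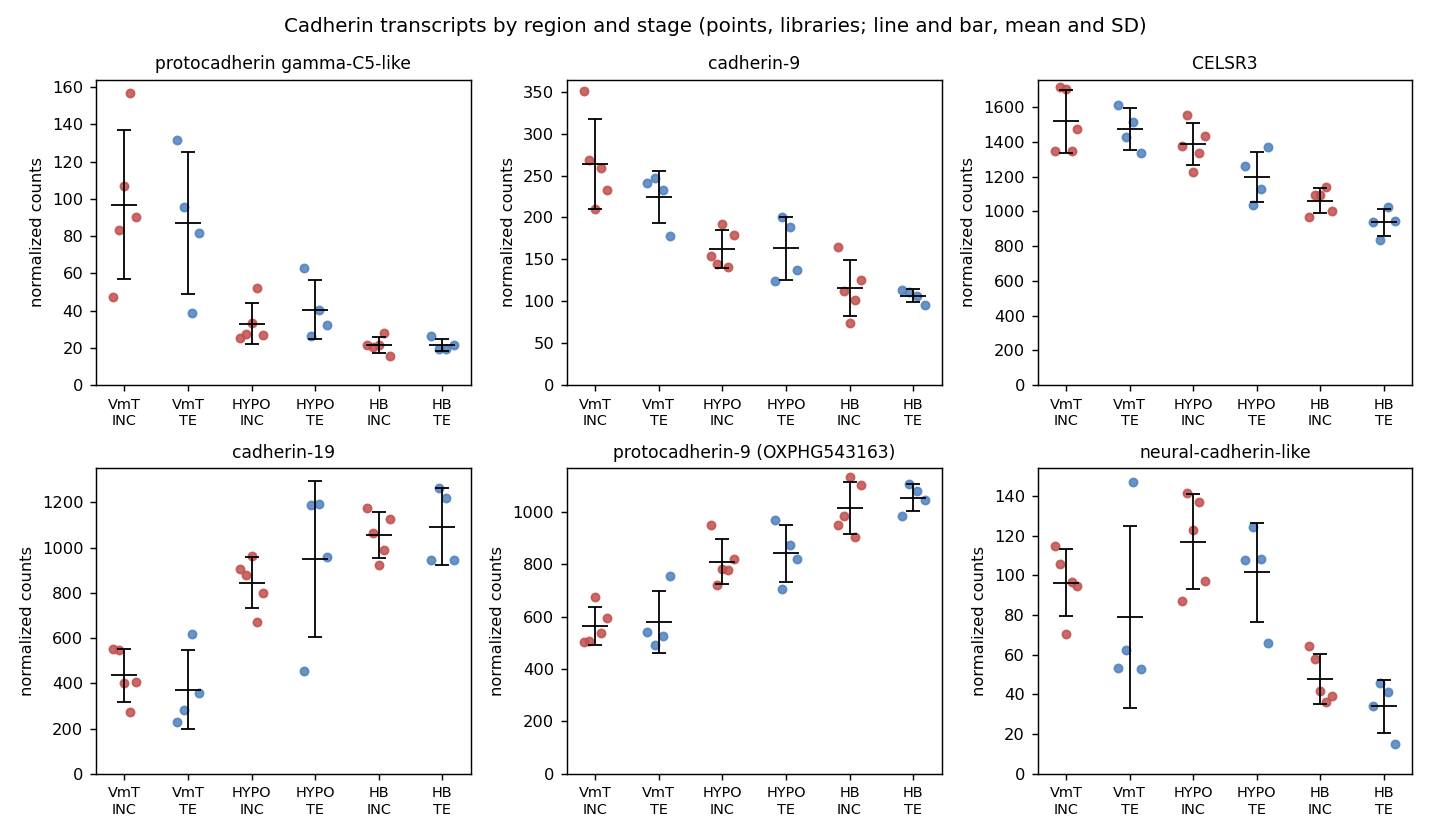
Normalized counts (y axis) of 6 cadherin transcripts in every library by region and stage, INC in red and TE in blue, with the mean and SD of each group in black. Protocadherin gamma-C5-like, cadherin-9 and CELSR3 step down to the HB, and cadherin-19 and protocadherin-9 step up to it. Neural-cadherin-like has its lowest mean in the HB (15.2 to 64.2). Its VmT libraries of TE, other than the unsettled one, lie within that range (52.7 to 62.2).

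CELSR3, a planar polarity receptor that in mouse is needed for major axon tracts, followed the order of cadherin-9. It had 1335 to 1715 normalized counts (median 1473) in the VmT, 1038 to 1557 (median 1336) in the HYPO and 834 to 1144 (median 1005) in the HB. The VmT and HB libraries did not overlap, and VmT over HB gave 0.58 on the log2 scale (standard error 0.07, adjusted p = 5.9e-08), beside 0.37 for HYPO over HB (adjusted p = 3.5e-04) and 0.21 for VmT over HYPO (adjusted p = 0.0197), the last of which was lost in 2 of 27 fits without a single library. CELSR1 had the opposite sign at a lower count, with 18.1, 24.96 and 31.8 in the VmT, HYPO and HB (-0.83 for VmT over HB). Of the 7 FAT and Dachsous members only protocadherin-23, a Dachsous protein, was called. It averaged 59.1 ± 16.2, 49.5 ± 10.4 and 32.7 ± 6.90 in the VmT, HYPO and HB, with 0.81 for VmT over HB (adjusted p = 1.98e-04) and 0.56 for HYPO over HB (adjusted p = 0.0205). Protocadherin Fat 3, at 201 ± 62.3, 254 ± 77.7 and 193 ± 39.8, passed in none.

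Among cadherin-related genes, both transcripts of cadherin-related family member 1, a protein of photoreceptor outer segments, were lower in the HB. The higher one averaged 14.8 ± 5.70 normalized counts in the VmT, 12.3 ± 4.55 in the HYPO and 3.78 ± 2.31 in the HB, with a log2 fold change of 1.84 for VmT over HB (adjusted p = 2.49e-05) and 1.52 for HYPO over HB (adjusted p = 0.00128). Cadherin-related family member 5, known from intestinal microvilli, had 176 ± 40.4, 179 ± 45.0 and 124 ± 34.5, and only VmT over HB passed (0.52, adjusted p = 0.0222).

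Of the 83 members, 10 had no overlap between the 9 VmT and 9 HB libraries, beside 1936 of 19473 transcripts (9.94%). There were 2 such members between the HYPO and the HB, beside 2.49%, and 0 between the VmT and the HYPO, beside 3.48%. When libraries were blocked by bird (replicate block, with 8 females in all 3 regions), 41 members were called between the VmT and the HB, 28 between the VmT and the HYPO and 23 between the HYPO and the HB, and all earlier calls were among them. Under the same block 48.6%, 31.5% and 17.8% of all transcripts were called. Without the 2 HB libraries highest in pituitary markers and, separately, without the 2 VmT libraries lowest in thalamus and midbrain markers, each of the 3 counts stayed within 1.5 times its value. Without the 2 VmT libraries the VmT and HYPO differed in 17 members (3 higher and 14 lower in the VmT). This was a share of 20.5%, beside 16.2% of all transcripts. The calls of protocadherin-9-like, protocadherin-10-like, cadherin-11, CELSR3 and protocadherin alpha-C2-like were lost there. Without the unsettled VmT library 26 members were called between the VmT and the HYPO and 35 between the VmT and the HB.

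Genes that work with cadherins are set beside the 43.4% of all transcripts called between the VmT and the HB (17.6% higher and 25.7% lower in the VmT). Of 17 catenins and partners measured, 5 were higher and 4 lower in the VmT than in the HB, with a median log2 fold change of 0.05 against -0.08 over all transcripts. CTNNA3, an alpha-catenin, averaged 76.6, 170 and 224 normalized counts in the VmT, HYPO and HB (-1.57 for VmT over HB, adjusted p = 9.56e-11), while ACTN1, an actin crosslinker, averaged 1406, 834 and 781 (0.85, adjusted p = 1.36e-11). Of 24 protocadherin partners and promoter regulators, 8 were higher and 3 lower in the VmT than in the HB. WASF1 and CYFIP2, subunits of the actin-regulating WAVE complex that binds delta protocadherins, gave 1.13 and 0.53. Of 20 planar polarity partners, 4 were higher and 4 lower, FZD3, the Frizzled that works with CELSR3, among the higher ones (1095, 751 and 552 in the VmT, HYPO and HB, 0.99 for VmT over HB). Of 13 genes for cadherin cleavage, 0 were higher and 6 lower in the VmT than in the HB, led by the sheddase gene ADAM15 (-1.08). Of 8 further genes with cadherin repeats or in cadherin junctions, 3 were lower in the VmT than in the HB, among them RET, a receptor kinase with cadherin-like repeats, at 771, 1475 and 3135 (-2.05).

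Between breeding stages few members moved. In the VmT 2 of 83 members were called between INC and TE (2.41%, beside 3.53% of all transcripts, or 3.1% counting only those higher in INC), both higher in INC. At an unadjusted p under 0.05 there were 11 of 83 members, beside 15.5% of all transcripts. The groups did not overlap for 1 member, beside 4.38%. In the HYPO limma called 0, beside 0.514% of all transcripts. For the same comparison edgeR called 0 and DESeq2 1, beside 100 and 414 of all transcripts. There 13 of 83 members had an unadjusted p under 0.05 (14.2% of all transcripts), and 2 members had no overlap, beside 5.56%. In the HB limma called 0, beside 0.00514%, with 0 members at an unadjusted p under 0.05 (3.32% of all transcripts), 0 by edgeR and 0 by DESeq2. The median log2 fold change over the members, INC over TE, was 0.16 in the VmT, 0.05 in the HYPO and -0.02 in the HB, against -0.01, 0.01 and -0.01 over all transcripts.

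B-cadherin-like was the clearest case. Its VmT libraries had 52.9, 55.2, 69.2, 62.8 and 41.1 normalized counts in INC, against 29.9, 18.6, 32.6 and 25.3 in TE. Every INC library was above every TE library, with means of 56.2 ± 10.6 in INC and 26.6 ± 6.13 in TE (SD, n = 5 and 4). Limma gave an adjusted p of 0.00167 for a log2 difference of 1.06 (standard error 0.18). Fitted on the 9 VmT libraries only, the adjusted p was 0.0901. In the HYPO it had 83.1, 83.9, 76.9, 90.9 and 51.9 in INC, against 67.7, 84.6, 82.1 and 90.6 in TE, and in the HB 90.2, 104, 85.1, 112 and 86.7 in INC, against 90.4, 98.5, 95.6 and 129 in TE. Both pairs of groups overlapped (log2 fold change -0.09 and -0.11). The test of the difference between regions in the stage effect passed for VmT minus HYPO (1.15, standard error 0.26, adjusted p = 0.0065) and for VmT minus HB (1.17, standard error 0.26, adjusted p = 0.0379). The second of these was lost in 14 of 27 fits without a single library, with adjusted p up to 0.149, and without the 2 VmT libraries lowest in thalamus and midbrain markers (adjusted p = 0.181).

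Several marker lists in the VmT had a median fold change, INC over TE, above 0. The largest medians on the log2 scale were those of pituitary markers (0.87, 0 of 6 called) and thalamus and midbrain markers (0.83, 2 of 20 called). Hypothalamus markers followed (0.50, 0 of 8 called). Medians were below 0 for microglia (-0.09), blood (-0.07) and ependyma and choroid plexus markers (-0.01). The mean log2 level of the astrocyte markers was 10.44 to 10.61 in INC and 9.97 to 10.36 in TE, without overlap, with 2 of 8 markers called. That of the oligodendrocyte markers was 8.53 to 9.20 in INC and 8.27 to 8.73 in TE, with 1 of 7 markers, ERMN, called (log2 fold change 0.76). Of 9 pan-neuronal markers 2 were called, with a median log2 fold change of 0.23, the same as the 0.23 of the astrocyte markers, and of 9 endothelial markers 0 were called, with a median of 0.25. The 2 TE libraries lowest in thalamus and midbrain markers, of females 85674 and 85689, had 29.9 and 18.6 normalized counts of B-cadherin-like, and the other 2 TE libraries, at 6.99 and 6.86 on the marker scale, had 32.6 and 25.3, still below every INC library. Without the first 2 libraries the log2 fold change was 0.92 with an adjusted p of 0.0493. Without the unsettled library it was 1.17 with an adjusted p of 0.00399. The part of these cell types and tissues was not tested.

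**Figure D4:**
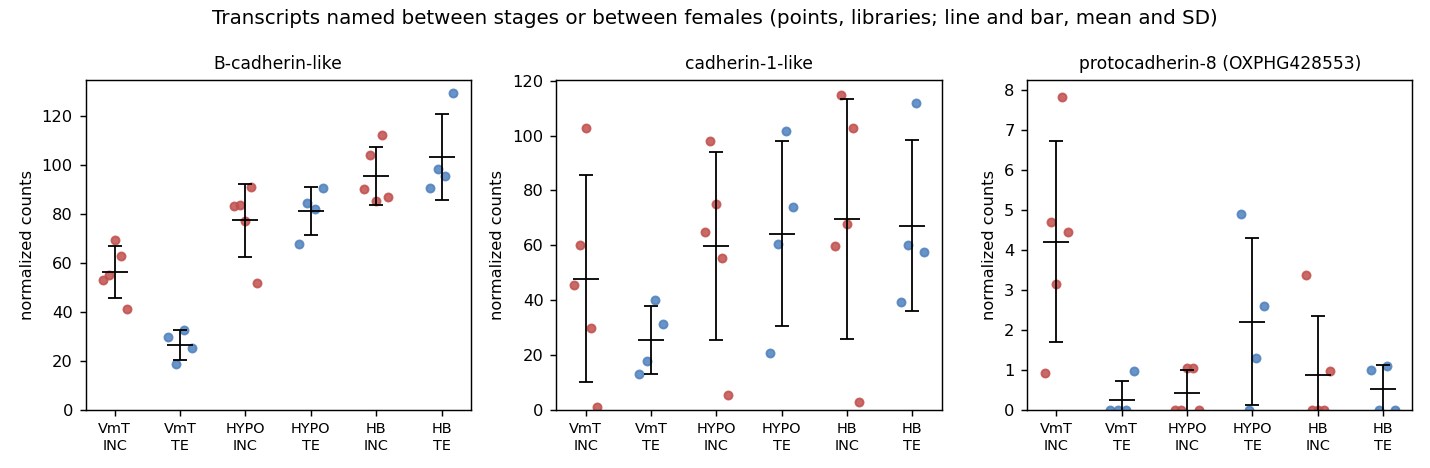
Normalized counts (y axis) of B-cadherin-like, cadherin-1-like and the low protocadherin-8 transcript in every library by region and stage, INC in red and TE in blue, with the mean and SD of each group in black. B-cadherin-like in the VmT has INC libraries at 41.1 to 69.2 and TE libraries at 18.6 to 32.6, and cadherin-1-like has 1 INC library at 1.11 to 5.19 in each region, all of female 85899.

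The other called member rests on a few reads. Protocadherin-8, whose rat counterpart is induced by neuronal activity, has 2 transcripts, and the one with fewer reads, OXPHG428553, had 0.927, 4.70, 3.15, 7.84 and 4.45 normalized counts in the VmT in INC, against 0, 0, 0 and 0.975 in TE. These stand for 22 reads in INC and 1 read in TE, a ratio of 20.8 per unit of depth with an exact 95% interval of 3.35 to 856 that covers counting error only. The groups overlapped, and limma put the log2 difference at 1.97 (standard error 0.54, adjusted p = 0.0374). Its size depends on the prior count, from 0.77 at a pseudocount of 5 to 3.71 in edgeR. The stage effect in the VmT differed from that in the HYPO (2.96, standard error 0.76, adjusted p = 0.0162, from 1.14 at a pseudocount of 5 to 6.404 in DESeq2, and lost at an adjusted p of 0.0902 without the 2 VmT libraries lowest in thalamus and midbrain markers). In the HYPO it had 0, 0, 1.04, 1.04 and 0 in INC, against 4.91, 0, 1.303 and 2.59 in TE. The other protocadherin-8 transcript, with 3.71, 11.8, 15.7, 25.9 and 14.45 in INC, against 7.46, 8.35, 6.90 and 12.7 in TE in the VmT, was not called. The call in the VmT was lost without the VmT library of INC female 85774, 85840, 85889 or 85899, of TE female 85674 or 85689, or the unsettled one (adjusted p 0.0571 to 0.115).

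No other member passed the test between stages. Of the 12 delta and other protocadherin names, 12 had a log2 fold change above 0 in the VmT by their main transcript, with a median of 0.25, and 0 were called. Over all members 56 of 83 were above 0 there, and over all transcripts 9468 of 19473. Other families went the same way, with 6 of 6 type I names above 0 (median 0.714), 5 of 5 other cadherin names (median 0.245) and 5 of 6 clustered protocadherin names. Type II names had 6 above and 6 below, and cadherin-related names 1 above and 5 below. Of the 12 delta and other protocadherin names, 3 had an unadjusted p under 0.05 in the VmT, beside 15.5% of all transcripts. They were protocadherin-10-like (0.60, adjusted p = 0.201), protocadherin-20 (0.50, adjusted p = 0.266) and protocadherin-11 X-linked (0.39, adjusted p = 0.242). In the HB 10 of these 12 names were above 0 and 2 below, with a median of 0.10, and in the HYPO 8 were above and 4 below, with a median of 0.01. In the HYPO the lowest adjusted p values in limma were those of a low cadherin-13 transcript, OXPHG187630 (adjusted p = 0.0771), and of a cadherin-6 transcript, OXPHG524069. The cadherin-13 transcript had 0, 4, 5, 7 and 2 reads in INC, 18 in all, against 0 in TE, so the groups overlapped. With TE set to a floor of 3 reads over the group, its ratio per unit of depth was 4.32, without allowance for error in the 18 reads. The cadherin-6 transcript had 64.8, 90.9, 80.1, 53.3 and 91.8 normalized counts in INC, against 47.1, 42.3, 66.4 and 33.7 in TE (0.69 on the log2 scale, standard error 0.20, adjusted p = 0.0866).

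**Figure D5:**
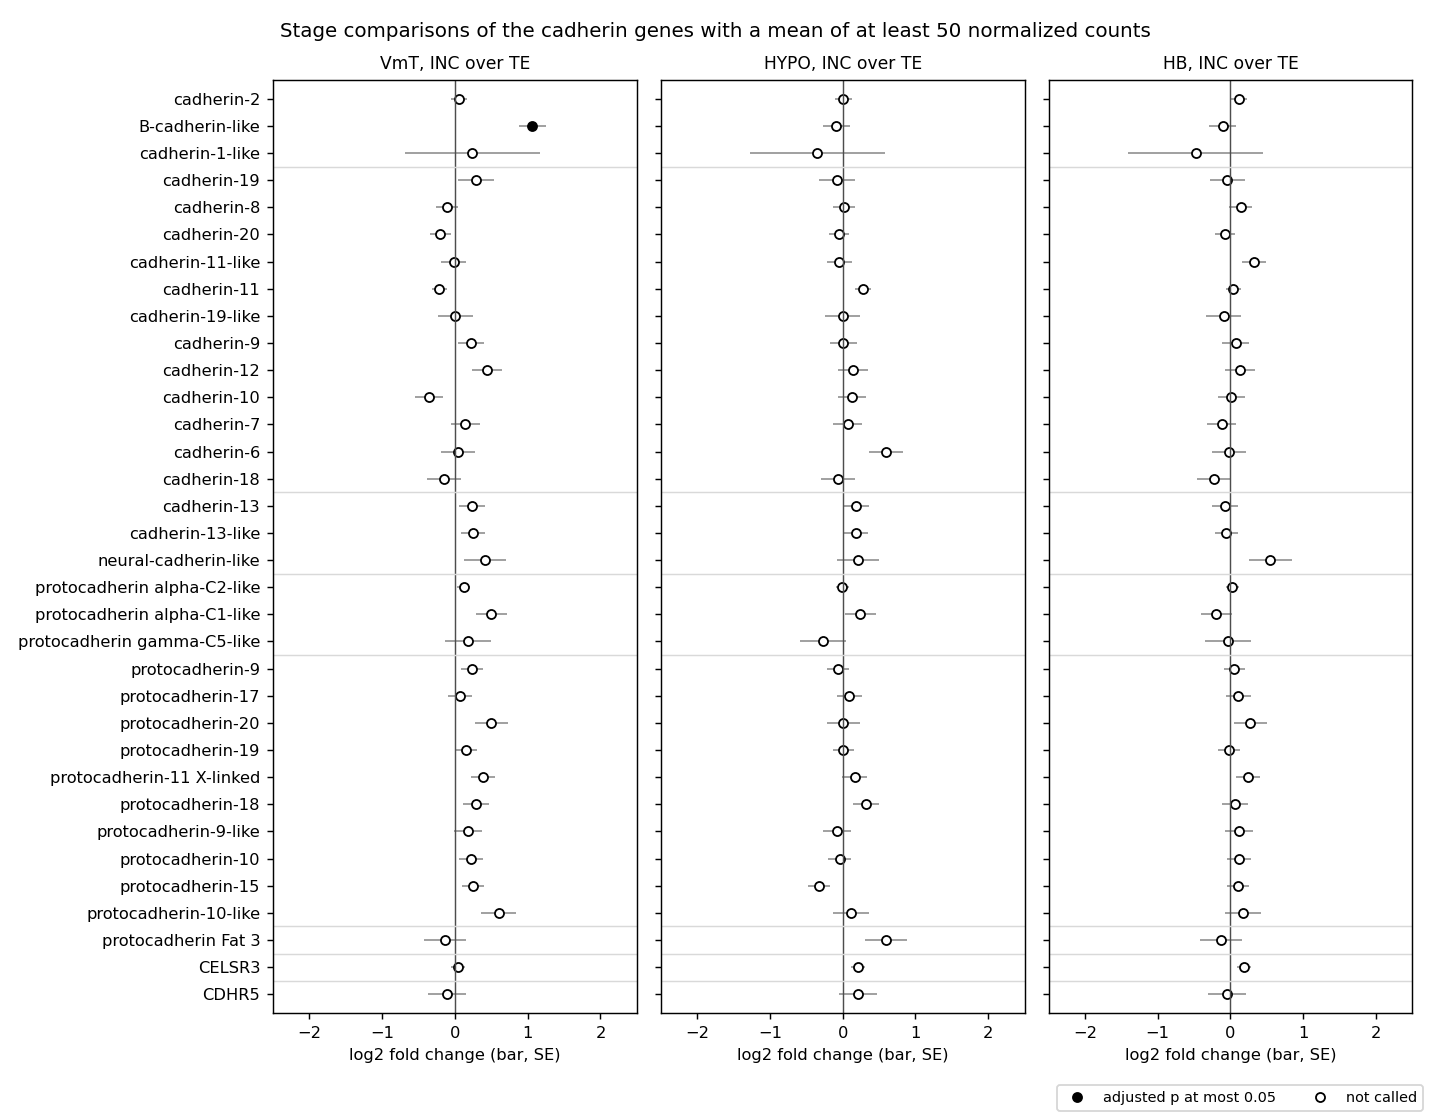
The log2 fold changes INC over TE (x axis, bars are standard errors) of the 34 cadherin genes with a mean of at least 50 normalized counts in the VmT, HYPO and HB, in the family order of the plot of region fold changes. B-cadherin-like in the VmT (1.06) is the one filled circle, which marks an adjusted p of at most 0.05.

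Limma called 2 of 83 members in the difference of stage effects between VmT and HYPO (2.41%, beside 5.95% of all transcripts), 1 between VmT and HB (1.20%, beside 0.437%) and 0 between HYPO and HB, beside 0%. In the last comparison 4 members had an unadjusted p under 0.05, beside 6.23% of all transcripts. There edgeR and DESeq2 called 0 members, beside 31 and 155 of all transcripts. Under the replicate block by bird the first count was 5 (6.02%, beside 8.28% of all transcripts). The additional 3 were cadherin-11 (-0.49, adjusted p = 0.0229 with the block and 0.0502 without), cadherin-6 (-0.92, adjusted p = 0.0212 with the block and 0.0513 without) and the low cadherin-13 transcript (adjusted p = 0.045 with the block and 0.0859 without). Cadherin-11 had 485, 545, 509.8, 464 and 448 normalized counts in INC, against 599.9, 627, 552 and 498 in TE in the VmT, and 635, 489, 456, 436 and 454.5 in INC, against 359, 448, 384 and 429 in TE in the HYPO. Its INC values thus lay mostly under the TE values in the VmT and mostly over them in the HYPO, with overlap in both.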

How the data were processed

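RNA of 27 libraries was prepared with a stranded mRNA kit. Per the labels and the study's methods, the authors trimmed reads with Trimmomatic 0.36 and mapped them with Bowtie2 2.3.4.1 to a tree swallow transcriptome. They kept proper pairs with SAMtools 1.3.1, counted reads per transcript and removed transcripts under a minimum of total reads. They also removed 1 TE female with degraded RNA in the HB and HYPO. The deposited signal values are counts divided by 1 size factor per library (DESeq2 1.16.1): in each library 100% of low values were whole multiples of 1 step, within 0.1. Dividing by this step gave 6001315 to 13710385 reads per library over the transcripts of the table, fewer than the mapped read pairs that the paper reports.

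Here values of at least 1 in at least 4 libraries were kept (19473 of 19478 transcripts). Limma 3.58.1 (R 4.3.3, trend) was fitted to log2(value + 1) over 6 groups with Benjamini-Hochberg adjustment. Alternatives used edgeR 4.0.16, DESeq2 1.42.0, other pseudocounts, filters, normalizations, weights and samples. The female number of the labels pairs libraries over regions. Residuals of 19 of 25 same-female pairs correlated above 0.1 (median 0.142, lowest -0.215, highest 0.384). P-values measure the spread between the libraries of a group, pooled over the 6 groups, and the main fit did not block by bird. Between stages in the VmT that fit called 687 of all transcripts, against 3 in a fit of the VmT libraries only. The main fit was tested on simulated counts, with changes set only in transcripts with a mean of at least 50. The simulation held no pairing by bird and no changed transcripts of low counts, so it does not bear on either. Members and gene lists were chosen with earlier results of these data known. Named are members called between stages or in a stage difference, the 6 called genes with the largest fold change in each direction per region comparison among represented genes with a mean of at least 50, and the gene with the highest mean per family. Other members given beside them were chosen after their values were seen. Sequences were not used here.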

Additional observations from a re-analysis of the deposited data

Results flagged for a closer look

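In 8 of 144 groups of 4 or 5 libraries (24 named transcripts in 6 groups), 1 library stood apart from the others of its group by Dixon's criterion. Chance gives about 1 in 20 such groups. Cadherin-11 had 513.3 normalized counts in the HB of TE female 85674, against 475 to 478 in the others, and 635.2 in the HYPO of INC female 85757, against 436 to 489. Cadherin-20 and cadherin-2 had 769.8 and 988.5 in the HB of the same INC female, against 563 to 613 and 796 to 841. Neural-cadherin-like had 147.3 in the unsettled VmT library of TE, against 52.7 to 62.2. Cadherin-related family member 5 had 161.5 in the HB of INC female 85840, against 102 to 119.5. The low protocadherin-8 transcript had 3.381 in the HB of INC female 85757, against 0 to 0.975, and 0.975 in the VmT of TE female 85694, against 0 in the other 3, which are steps of single reads.

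The stage effect differed between regions by the test of the difference itself in 3 cases. B-cadherin-like had a stage effect larger in the VmT by 1.148 than in the HYPO and by 1.168 than in the HB, on the log2 scale, and the low protocadherin-8 transcript one larger in the VmT by 2.965 than in the HYPO.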

How the results depend on the processing

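The counts between regions stayed within 1.5 times in every alternative run, and without single libraries they ran from 20 to 26 (VmT against HYPO), 33 to 40 (VmT against HB) and 13 to 19 (HYPO against HB). The stage counts are small and moved easily. In the VmT the count of 2 was 1 after a filter on a mean of 10, 1 with DESeq2, 0 in a fit of the VmT alone (B-cadherin-like 1.06, adjusted p = 0.0901), and, in alternatives chosen after seeing the data, 5 without the 3 libraries of female 85757 and 1 without the 2 VmT libraries lowest in thalamus and midbrain markers. Without single libraries it was 1 to 5, at 5 without the VmT library of female 85757. In the HYPO 0 became 1 with array weights, 1 with DESeq2 and 2 without female 85757 (0 to 2 without single libraries, at 2 without the HYPO library of that female), and in the HB it was 0 in all. The stage difference VmT against HYPO (2) was 4 with quantile normalization, 5 with edgeR, 5 with DESeq2, 5 with the replicate block (5 also with the unsettled library as female 85691), 6 without female 85757, and 1 without the 2 VmT libraries. Without single libraries it was 2 to 4. It was 4 when the library left out was the HB of 85840, the HYPO of 85757 or 85889, or the VmT of 85757 or 85774. VmT against HB (1) was 0 with quantile normalization, in a fit of those 2 regions, without the 2 VmT libraries and without the 2 HB libraries highest in pituitary markers. Without single libraries it was 0 to 1. It was 0 when the library left out was the HB of 85674, 85689, 85691, 85694, 85774, 85840, 85889 or 85899, the VmT of 85674, 85689, 85840, 85889 or 85899, or the unsettled one. HYPO against HB (0) was 1 without female 85757 (0 to 1 without single libraries, at 1 without the HYPO library of that female). Calls over all transcripts did not always move the same way. In the VmT they rose from 687 to 1045 with DESeq2 and to 723 with the filter on a mean of 10. In the HYPO they were 725 with array weights and 414 with DESeq2, against 100. For VmT against HYPO they were 1134 with quantile normalization, 1197 with edgeR and 1385 with DESeq2, against 1159. Shares over all transcripts moved with the member counts without female 85757 and without the 2 VmT libraries. Without female 85757 the VmT count was 6.02% of members, beside 4.27% of all transcripts. The HYPO count was 2.41% beside 4.74%, and that of VmT against HYPO 7.23% beside 8.68%. Without the 2 VmT libraries the VmT count was 1.2% beside 0.565%, and that of VmT against HYPO 1.2% beside 4.02%. The cause of these shifts was not tested. The replicate block changed no other stage count.

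Of 37 comparisons of named transcripts, 25 kept direction and call in all alternatives, 0 reversed, and 90 of 1551 fits lost a call. The stage calls lost without single libraries are those of protocadherin-8 in the VmT (adjusted p 0.0571 to 0.115) and of B-cadherin-like for VmT against HB. Region calls were lost as follows. For VmT over HYPO, protocadherin-9-like was lost when the HYPO of 85674, 85691, 85840, 85889 or 85899 or the VmT of 85674, 85689, 85889 or 85899 was left out (adjusted p 0.0525 to 0.125), protocadherin-10-like without the HYPO library of 85689 or the VmT library of 85674, 85689 or 85889 (0.0562 to 0.0831), protocadherin alpha-C2-like without the HYPO library of 85674, 85694 or 85889, the VmT library of 85674 or the unsettled one (0.0508 to 0.0718), and CELSR3 without the HYPO library of 85689 (0.0522) or the VmT library of 85674 (0.0501). For HYPO over HB, protocadherin gamma-C5-like was lost without the HB library of 85689, 85691, 85694, 85757, 85774 or 85899 or the HYPO library of 85674, 85691, 85840 or 85889 (0.0542 to 0.109), protocadherin-9 without the HB library of 85689, 85691, 85694, 85757, 85840 or 85899 or the HYPO library of 85689, 85694, 85774, 85840 or 85889 (0.0511 to 0.0958), and cadherin-20 without the HB library of 85689 (0.0629) or 85757 (0.0547) or the HYPO library of 85674 (0.0787). Without the 2 VmT libraries, VmT over HYPO was lost for cadherin-11 (0.137), CELSR3 (0.0955), protocadherin alpha-C2-like (0.118), protocadherin-9-like (0.331) and protocadherin-10-like (0.283). Quantile normalization lost protocadherin-9-like (0.0518), protocadherin-10-like (0.0572), CELSR3 (0.119) and protocadherin-9 (0.107), and fitting without trend lost protocadherin-9-like (0.0535), protocadherin gamma-C5-like (0.0503) and protocadherin-9 (0.0638). Protocadherin-10-like was also lost in a fit of those 2 regions (0.0592) and without female 85757 (0.0518), protocadherin-9 with edgeR (0.0795) and without that female (0.0879), and protocadherin gamma-C5-like at a pseudocount of 5 (0.0517).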
